A study of Rattus norvegicus with 15 samples.

Results

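Cells export cholesterol through transporters that liver X receptors switch on, and 9 genes of this system were followed here on arrays of rat ventral tegmental area, the midbrain region of the mesolimbic dopamine neurons. They were chosen by gene symbol, with ethanol-minus-water results of these same arrays already known, so their differences between the groups are given as descriptions with no test. All 9 were on the array, of 14217 genes with a symbol there, through 18 of its 31042 probe sets other than controls, each a set of short probes for 1 transcript that the annotation gives exactly 1 symbol. A filter on dim probe sets, at a mean of 6.94 log2 units, kept 12 of the 18 and at least 1 probe set of 7 of the 9 genes. Nr1h3 (6.49) and both probe sets of Soat1 (6.73 and 5.05) lay below it, and the dimmest that passed was an Abca1 probe set at 7.47.

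There were 2 groups of rats, with 1 array for each animal. The 7 ethanol rats had received the ethanol treatment and the 8 controls, matched for age, had received water. By the series title the rats are of the alcohol-preferring (P) line, which is bred for high voluntary alcohol intake, and the drinking studied is loss-of-control drinking. The series' design text speaks instead of lines bred for high or low consumption, and the labels name no line for a single rat. The labels give no sex, no age and no time from the last drink to tissue collection. Th, the rate-limiting enzyme of dopamine synthesis, ranged from 14.44 to 15.26 log2 units over the 15 arrays, and the dopamine transporter Slc6a3 ranged from 14.15 to 15.01, so the defining transcripts of the labelled region were bright on every array.

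The brain makes its own cholesterol, because plasma lipoproteins do not cross the blood-brain barrier, and disposes of the surplus locally. Sterol-loaded cells form oxysterols, which bind the liver X receptors Nr1h2 (LXR beta) and Nr1h3 (LXR alpha). These act as heterodimers with retinoid X receptors on repeated hexamer sites called DR4 elements and induce the exporters Abca1 and Abcg1, the carrier Apoe, the ubiquitin ligase Mylip and the acyltransferase Lpcat3. Glia, mainly astrocytes, supply lipoprotein particles with Apoe, neurons clear cholesterol by hydroxylating it through Cyp46a1, and Soat1 esterifies what is stored.

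Promoters of 8 of the 9 genes, all but Abcg1, were found in RefSeq's table for the GRCr8 assembly. Each holds 250 bases before and 50 after a transcript start. Of these, 3 are shown, 5′ to 3′ on the strand of the gene. That of Abca1 (chr5:72596424-72596723, minus strand) belongs to the gene with the largest difference between the groups, and capitals mark a relaxed DR4 match and an E-box. That of Mylip (chr17:19514422-19514721, minus strand), another receptor target, has its TATA box in capitals. That of Cyp46a1 (chr6:133011740-133012039, plus strand), the neuronal gene whose level varied least between rats, has its GC boxes in capitals.
Abca1: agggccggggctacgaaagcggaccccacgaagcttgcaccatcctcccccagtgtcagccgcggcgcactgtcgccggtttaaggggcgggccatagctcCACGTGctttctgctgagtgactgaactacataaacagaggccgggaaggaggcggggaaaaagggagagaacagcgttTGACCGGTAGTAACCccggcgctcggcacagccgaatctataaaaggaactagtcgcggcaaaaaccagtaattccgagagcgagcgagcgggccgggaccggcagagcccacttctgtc
Mylip: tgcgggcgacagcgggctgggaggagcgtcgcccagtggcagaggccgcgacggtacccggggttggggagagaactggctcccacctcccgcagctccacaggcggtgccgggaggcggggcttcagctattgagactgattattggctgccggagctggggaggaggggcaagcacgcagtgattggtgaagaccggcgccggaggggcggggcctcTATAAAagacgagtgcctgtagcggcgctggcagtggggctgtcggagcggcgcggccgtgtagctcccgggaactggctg
Cyp46a1: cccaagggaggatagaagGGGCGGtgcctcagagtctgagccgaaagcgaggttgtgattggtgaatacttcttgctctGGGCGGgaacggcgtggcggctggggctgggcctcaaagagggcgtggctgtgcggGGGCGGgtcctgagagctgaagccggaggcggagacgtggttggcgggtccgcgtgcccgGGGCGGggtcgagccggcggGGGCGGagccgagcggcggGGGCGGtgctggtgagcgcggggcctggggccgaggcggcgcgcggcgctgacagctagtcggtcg

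Motifs were searched on both strands. Abcg1, with no promoter in the table, could not be searched. The perfect DR4 repeat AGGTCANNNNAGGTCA occurred in 2 of the table's 33469 promoters and in none of the members. A relaxed form, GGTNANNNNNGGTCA, was written down after the promoters had been read. It matched 0.230% of all promoters and, among the members, Abca1 alone, as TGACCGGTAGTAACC on the strand shown, from position -70 to -56 relative to the transcript start. The E-box CACGTG, in 6.42% of all promoters, lay in Abca1 at -149 to -144. The TATA box TATAAA, in 14.2% of all promoters, lay at -32 to -27 in Abca1 and at -31 to -26 in Mylip. The GC box GGGCGG occurred 6 times in Cyp46a1, whose window is 73.0% G and C, and 1.15% of all promoters hold 6 or more. None of the matches within the 3 windows shown overlapped another. A match describes letters in a window and shows no binding.

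Among the exporters, Abca1 had the highest mean in ethanol rats relative to water. Abca1 loads cholesterol and phospholipid onto lipid-poor apolipoproteins and so starts a lipoprotein particle. Its brightest probe set, 1382431_at, ran from 9.91 to 10.61 log2 units in water rats with a median of 10.15, and from 10.31 to 11.15 in ethanol rats with a median of 10.65. In 5 of 7 ethanol rats it was above every water rat, and the 2 others lay inside the water range. The means were 10.73 ± 0.27 (SD, n = 7) and 10.23 ± 0.27 (SD, n = 8), a difference of 0.50 log2 units (limma SE 0.13), or 1.41-fold. That difference is larger than the SD within either group.

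The other Abca1 probe sets had higher means in ethanol rats too. Probe set 1383355_at ran from 7.12 to 7.51 in water rats (median 7.32) and from 7.46 to 7.91 in ethanol rats (median 7.63). A single water rat, number 5, reached into the ethanol range, and a single ethanol rat, number 1, lay inside the water range. Its difference was 0.36 log2 units (SE 0.07), or 1.28-fold. Probe set 1394490_at averaged 8.15 ± 0.33 (SD, n = 7) against 7.75 ± 0.28 (SD, n = 8), a difference of 0.40 (SE 0.14), with 2 ethanol rats inside the water range. The fourth, 1384381_at, was below the filter, at 5.10 against 4.92 (difference 0.18, SE 0.08), with 5 of 7 ethanol rats inside the water range. The size of the Abca1 difference therefore ran from 0.18 to 0.50 log2 units by probe set, with the smallest value in the one below the filter.

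Abcg1, which passes cholesterol on to particles that already hold lipid, differed far less. Its brightest probe set, 1368103_at, ran from 10.63 to 10.92 in water rats (median 10.81) and from 10.72 to 10.97 in ethanol rats (median 10.85). The groups overlapped over most of this range, and the difference was 0.08 log2 units (SE 0.05). Its other probe sets, 1373995_at and 1387054_at, differed by 0.10 (SE 0.05) and 0.04 (SE 0.05). For 1373995_at, 5 of 7 ethanol rats were above every water rat, in a range of 7.89 to 8.09 for water and 7.90 to 8.30 for ethanol.

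**Figure D1:**
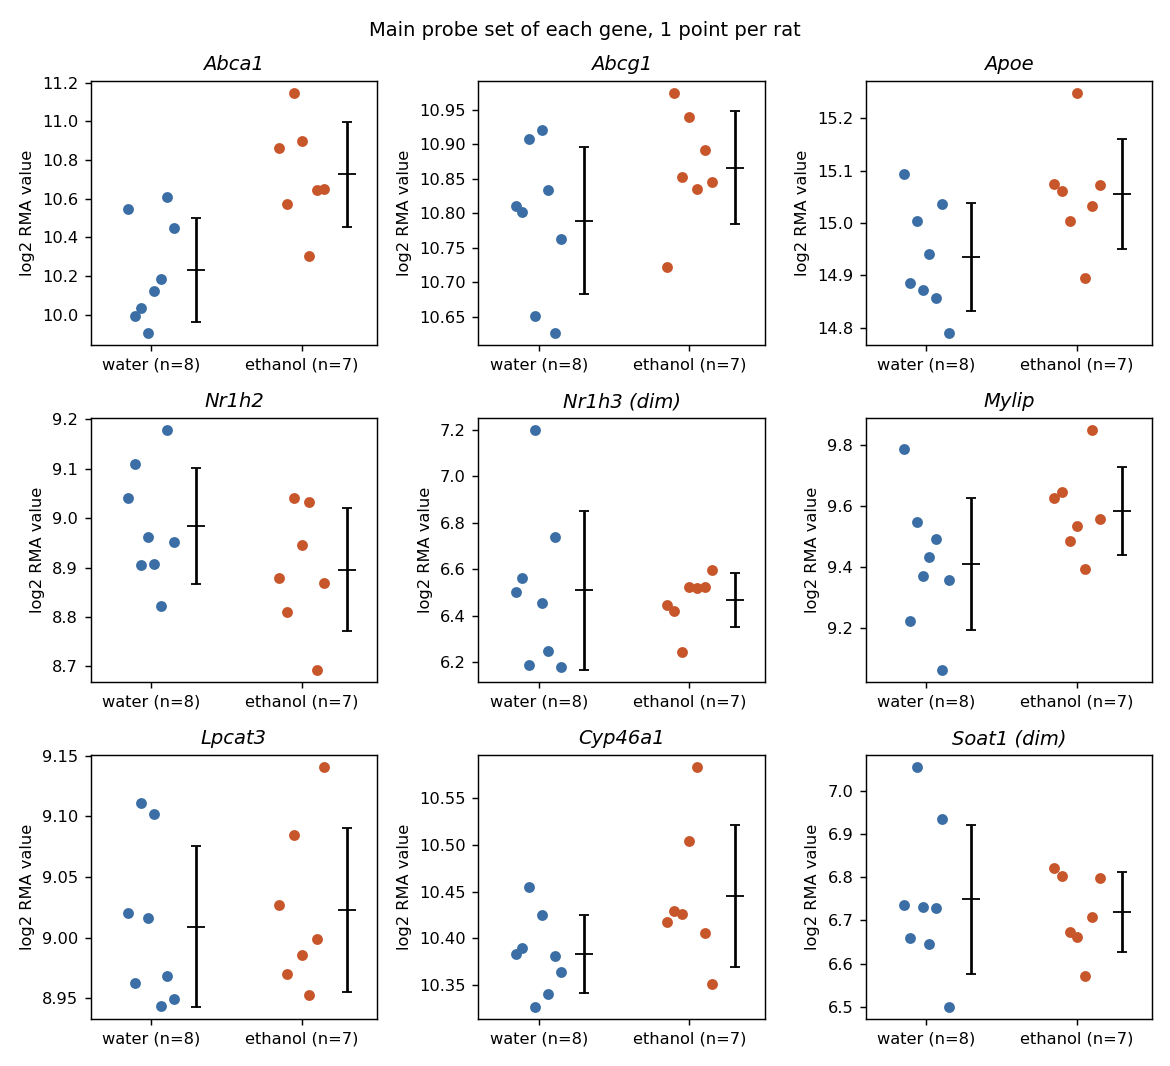
Log2 RMA value (vertical axis, scaled separately in each panel) of the main probe set of each gene in 8 water rats and 7 ethanol rats. Points are rats, and the black mark and bar beside them are the group mean and SD. Nr1h3 and Soat1 are marked dim because they lay below the filter. Abca1 shows 5 of 7 ethanol rats above every water rat, and in all 9 panels the groups overlap.

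Apoe, the main lipoprotein of the brain and the acceptor of exported cholesterol, was bright on every array. Water rats ran from 14.79 to 15.09 with a median of 14.91, and ethanol rats from 14.89 to 15.25 with a median of 15.06. Of 7 ethanol rats, 6 lay inside the water range and number 5 was above it. The difference was 0.12 log2 units (SE 0.05). A second Apoe probe set, at 5.10 and below the filter, differed by -0.07 (SE 0.07), opposite in sign.

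The liver X receptors themselves differed by less than their spread between rats. Nr1h2, the liver X receptor found in most cell types, ran from 8.82 to 9.18 in water rats (median 8.96) and from 8.69 to 9.04 in ethanol rats (median 8.88). The difference was -0.09 log2 units (SE 0.06), and 5 of 7 ethanol rats lay inside the water range. Its second probe set, 1389854_at, was below the filter and differed by 0.02 (SE 0.07), opposite in sign. Nr1h3, the form best known from liver and macrophages, was dim. It ran from 6.18 to 7.20 in water rats (median 6.48) and from 6.24 to 6.60 in ethanol rats (median 6.52), so that the whole ethanol range lay inside that of water. Water rat 4 held the value of 7.20, and the difference of -0.04 had an SE of 0.12.

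Of the receptor targets outside export, Mylip had the larger difference. Mylip marks lipoprotein receptors for degradation and so limits cholesterol uptake. It ran from 9.06 to 9.79 in water rats (median 9.40) and from 9.39 to 9.85 in ethanol rats (median 9.56), a difference of 0.18 log2 units (SE 0.09) with 6 of 7 ethanol rats inside the water range. Lpcat3, which puts polyunsaturated chains into membrane phospholipids, differed by 0.01 (SE 0.04) and 0.03 (SE 0.04) in its 2 probe sets. Its brighter probe set ran from 8.94 to 9.11 in water rats and from 8.95 to 9.14 in ethanol rats, nearly the same range, and the water median was 8.99.

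Cyp46a1, the neuronal enzyme that hydroxylates cholesterol so that it can leave the brain, was the steadiest transcript of the set. It ran from 10.33 to 10.46 in water rats (median 10.38) and from 10.35 to 10.58 in ethanol rats (median 10.43), with a difference of 0.06 log2 units (SE 0.04). Soat1, which makes cholesteryl esters for storage, was below the filter in both probe sets. Its brighter one ran from 6.50 to 7.05 in water rats (median 6.73) and from 6.57 to 6.82 in ethanol rats (median 6.71), and its differences were -0.03 (SE 0.07) and 0.03 (SE 0.06).

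**Figure D2:**
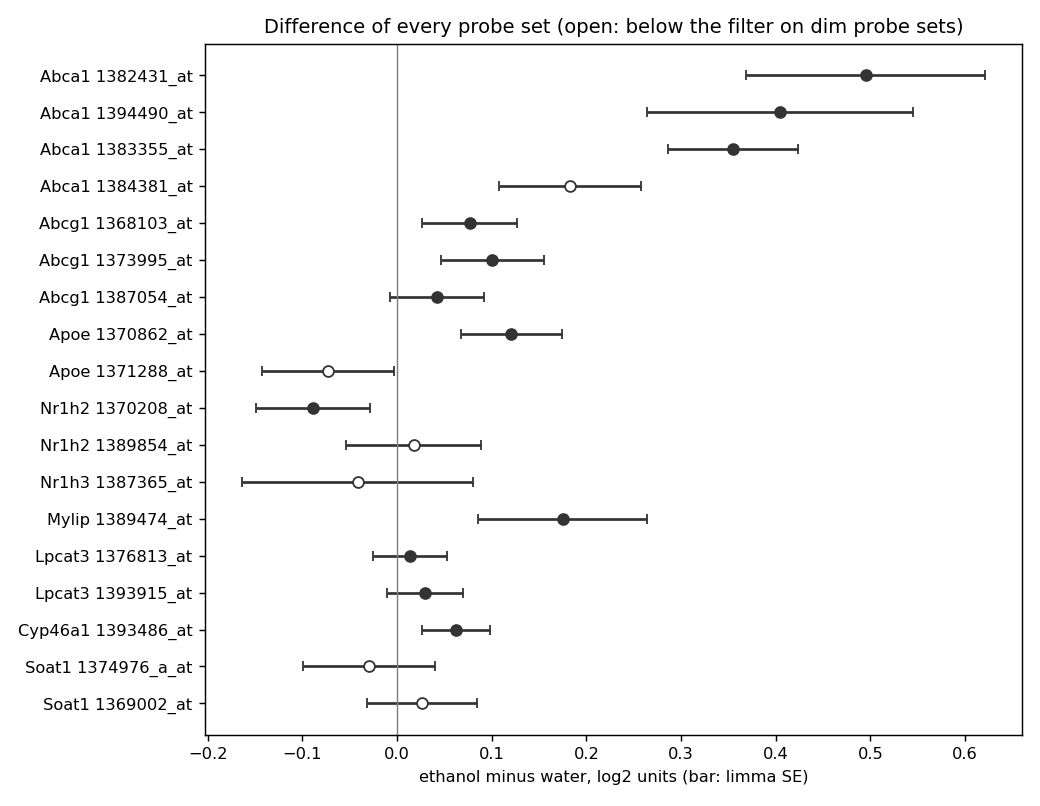
Ethanol minus water in log2 units (horizontal axis) for all 18 probe sets of the 9 genes, with limma's SE as bars. Filled points passed the filter on dim probe sets and open points did not. All 4 Abca1 probe sets lie right of 0, from 0.18 to 0.50, and the other kept probe sets lie between -0.09 and 0.18.

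Counted together, 11 of the 12 kept probe sets had higher means in ethanol rats, as did 53.3% of all kept probe sets. The 12 belong to 7 genes, and by main probe set 6 of the 7 had higher means. The median difference of the 12 was 0.09 log2 units against 0.006 over all kept probe sets, and their median size was 0.095 against 0.052. Of the 12, 1 had an adjusted p below 0.05 in limma over all probe sets, Abca1 1383355_at, where 0.929% of all 18625 tested did. Because the genes were chosen with this contrast known, nothing is read from that count. In none of the 12 were the groups free of overlap, which was so for 0.623% of all kept probe sets. The called probe set lost its call without ethanol rat 8, and Abca1 1382431_at gained 1 without ethanol rat 6.

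Markers of cell types were read on the same arrays, in 9 lists. Of 15 microglial markers 13 were measured, all with higher means in ethanol rats, and 4 passed the test. Their average level ran from 9.07 to 9.48 in water rats and from 9.41 to 9.66 in ethanol rats. Oligodendrocyte markers, 13 measured of 14, averaged 12.77 to 13.23 in water and 12.52 to 12.84 in ethanol rats, and 4 fell. Astrocyte markers, 10 measured of 11, averaged 12.08 to 12.30 and 11.99 to 12.28. Neuronal markers, all 11 measured, averaged 12.22 to 13.30 and 12.48 to 13.17. None of either passed. The neurofilament genes Nefl, Nefm and Nefh had SDs of 1.47, 1.31 and 1.40 log2 units in water rats. No other neuronal marker had an SD above 0.32 there, so the neuronal range does not describe the list as a whole. Of the 10 markers of perivascular macrophages and blood, 2 passed the filter, and Cd163, Mrc1 and Lyve1, which define those macrophages, were below it. Their means were lower in ethanol than in water rats, at 5.59 against 5.78, 6.58 against 7.26 and 5.61 against 6.44. Being below the filter, these 3 genes were not among those tested. Olig1, a gene of the oligodendrocyte lineage, fell by 0.28 log2 units (SE 0.06, limma adjusted p = 0.0452), the only 1 of 3 measured precursor markers to pass. Dopamine neuron markers, 9 measured of 12, all had higher means in ethanol rats, and averaged 12.60 to 13.28 in water and 12.77 to 13.45 in ethanol rats. Markers of choroid plexus and meninges, 5 measured of 10, had lower means in 4, and averaged 9.81 to 10.50 and 9.59 to 10.20. The difference of that average was -0.36 log2 units. It rests on Col1a2, Dcn, Igf2, Igfbp2 and Ptgds, as Ttr, Kl, Folr1, Foxj1 and Kcnj13 were not measured. Endothelial and mural markers, 10 measured of 11, averaged 9.02 to 9.25 and 8.99 to 9.24. None of the last 3 lists held a gene that passed. The part of any of these cells in the members' differences was not tested. The microglial and the oligodendrocyte means each overlapped little between the groups. A fit with either as a covariate therefore cannot separate cell content from treatment. In tissue RNA, more cells of a type and more RNA per cell cannot be told apart. With the microglial mean as a covariate the difference of Abca1 1383355_at was 0.27 log2 units (SE 0.10), no longer called, and that of 1382431_at was 0.67 (SE 0.17). With the oligodendrocyte mean as a covariate they were 0.42 (SE 0.08), still called, and 0.45 (SE 0.16). Probe set 1382431_at was not called with either covariate or without them.

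Several of the smaller differences changed in size or sign with the microglial covariate. With it, Mylip was at 0.03 log2 units (SE 0.12) and Nr1h2 at -0.01 (SE 0.08). The sign turned for the brightest Abcg1 probe set, at -0.02 (SE 0.06), and for both probe sets of Lpcat3, at -0.04 (SE 0.05) and -0.02 (SE 0.06). Abcg1 1373995_at was at 0.004 (SE 0.07). Each of these values was smaller than its SE, so nothing is read from the turns of sign. The part of microglia in these changes was not tested. Apoe and Cyp46a1, at 0.11 (SE 0.08) and 0.08 (SE 0.05), stayed near their values without it. With the oligodendrocyte covariate Abcg1 1368103_at was at 0.16 (SE 0.05), Mylip at 0.20 (SE 0.11) and Nr1h2 at -0.12 (SE 0.07), and the median over the 7 main probe sets was 0.13, against 0.03 with the microglial covariate and 0.08 with neither.

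Variation between rats of the same group does not use the contrast on which the genes were chosen, and it divided the Abca1 probe sets. The comparison between probe sets of a gene was added after the values had been seen, and covers 13 pairs of probe sets in each of 2 groups, 26 correlations in all. Probe sets 1382431_at and 1394490_at went up and down together. In ethanol rats Pearson's r was 0.96 (n = 7, exact permutation p = 5.95e-04, adjusted p = 0.0155), Spearman's rho was 1 (exact permutation p = 3.97e-04, adjusted p = 0.0103), and r was 0.81 without the 2 rats farthest from the median. In water rats r was 0.87 (n = 8, exact permutation p = 0.00930, adjusted p = 0.121), rho was 0.79 (exact permutation p = 0.0279) and r was 0.84 without the 2 farthest.

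Probe set 1383355_at did not follow them. Against 1394490_at in water rats its r was -0.74 (n = 8, exact permutation p = 0.0364, adjusted p = 0.308), its rho was -0.86 (exact permutation p = 0.0107, adjusted p = 0.139), and its r was -0.78 without the 2 farthest rats. Against 1382431_at in water rats r was -0.71 (n = 8, exact permutation p = 0.0473, adjusted p = 0.308), rho was -0.74 (exact permutation p = 0.0458), and r was -0.80 without the 2 farthest. Neither passed after adjustment. In ethanol rats the same correlations were 0.02 and -0.16 (n = 7, exact permutation p = 0.966 and 0.735), with rho of -0.07 for each (exact permutation p = 0.906 for both), so no relation was detectable there. Of the 26 correlations between probe sets of a gene, 1 passed after adjustment. The 3 probe sets of Abcg1 gave r between -0.34 and 0.33 over both groups, the smallest unadjusted exact permutation p being 0.422.

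**Figure D3:**
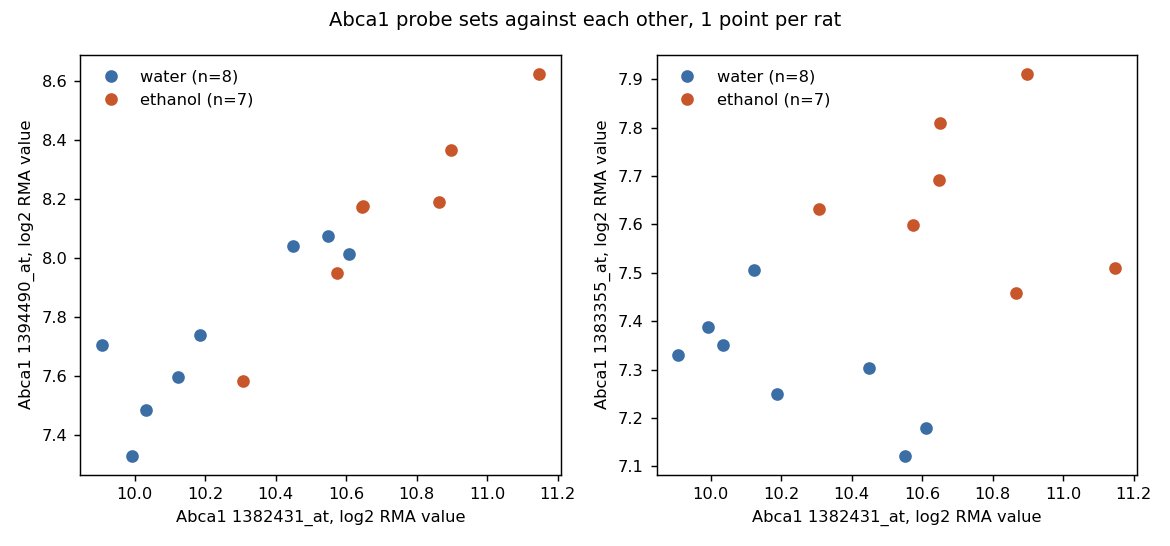
Log2 RMA values of Abca1 probe set 1382431_at (horizontal axes) against 1394490_at (left) and 1383355_at (right), with 1 point per rat, 8 water and 7 ethanol. On the left the points rise together in each group (r = 0.87 in water and 0.96 in ethanol rats). On the right the water rats slope downward (r = -0.71) and the ethanol rats lie above nearly all of them.

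Between different genes of the set, the main probe sets formed 36 pairs in each group, or 72 correlations, and none passed after adjustment. Unadjusted exact permutation p-values were below 0.05 for 4. The strongest was Nr1h2 against Mylip in ethanol rats, with r of -0.95 (n = 7, exact permutation p = 9.92e-04, adjusted p = 0.0714), rho of -0.93 (exact permutation p = 0.00675, adjusted p = 0.486) and r of -0.90 without the 2 rats farthest from the median. In water rats the same pair had r of -0.52 (n = 8, exact permutation p = 0.187), rho of -0.60 (exact permutation p = 0.132) and r of -0.89 without the 2 farthest. No relation was detectable between the exporters. Abca1 against Abcg1 gave r of -0.29 in water rats (n = 8, exact permutation p = 0.472), rho of -0.19 (exact permutation p = 0.665) and r of -0.55 without the 2 farthest. In ethanol rats r was -0.13 (n = 7, exact permutation p = 0.800), rho was 0 (exact permutation p = 1) and r was 0.36 without the 2 farthest.

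The main probe set of each gene, 1382431_at for Abca1, was set against the mean of 5 marker lists within each group, 90 correlations in all. None passed after adjustment, the smallest adjusted p being 0.616 (exact permutation), and 5 had an unadjusted p below 0.05. Apoe followed the astrocyte mean in water rats with r of 0.78 (n = 8, exact permutation p = 0.0199) and rho of 0.81 (exact permutation p = 0.0218), but r was 0.54 without the 2 farthest rats. Nr1h2 went with the neuronal mean in ethanol rats, with r of 0.81 (n = 7, exact permutation p = 0.0274), rho of 0.82 (exact permutation p = 0.0341) and r of 0.84 without the 2 farthest. Mylip ran opposite to it, with r of -0.80 (n = 7, exact permutation p = 0.0385), rho of -0.82 (exact permutation p = 0.0341) and r of -0.77 without the 2 farthest. Abca1 went with the astrocyte mean in ethanol rats, with r of 0.83 (n = 7, exact permutation p = 0.0266), rho of 0.71 (exact permutation p = 0.0881) and r of 0.64 without the 2 farthest. Lpcat3 ran opposite to the neuronal mean in water rats, with r of -0.80 (n = 8, exact permutation p = 0.0156), rho of -0.81 (exact permutation p = 0.0218) and r of -0.64. In the other group each of these 5 pairs had an unadjusted exact permutation p above 0.05. There r was -0.04 for Abca1 with the astrocyte mean and -0.03 for Lpcat3 with the neuronal mean. For Nr1h2 and Mylip with the neuronal mean it was 0.35 and -0.53. For Apoe with the astrocyte mean it was 0.73, and -0.53 without the 2 farthest. Abca1 against the microglial mean gave r of -0.45 in water rats (n = 8, exact permutation p = 0.263), rho of -0.21 (exact permutation p = 0.619) and r of 0.29 without the 2 farthest, and in ethanol rats r of -0.14 (n = 7, exact permutation p = 0.773), rho of 0 (exact permutation p = 1) and r of 0.13. These numbers of rats leave wide uncertainty around each r.

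The spread between rats differed among the genes. The pooled SD within groups was 0.27 log2 units for Abca1 1382431_at, against a median of 0.11 over all kept probe sets. For Abca1 1394490_at and 1383355_at it was 0.30 and 0.14. Nr1h3, below the filter, had 0.26, with an SD of 0.34 in water rats and 0.12 in ethanol rats. The pooled SD of the main probe set was 0.19 for Mylip, 0.12 for Nr1h2, 0.10 for Apoe and for Abcg1, 0.07 for Lpcat3 and 0.06 for Cyp46a1. Genes that varied most like each member were sought among 10251 others, by the correlation of deviations from the group means over 15 arrays. Those highest for Abca1 were Ubr3 (r = 0.81), Cdk13 (0.81) and Yaf2 (0.78). For Apoe they were Wdfy1 (0.90), Pamr1 (0.88) and Igfbp5 (0.88), and for Cyp46a1 they were Lrrc4b (0.88), Hs1bp3 (0.81) and Usp21 (0.80). Mylip had Akap9 (0.91), Cplx2 (0.91) and Rcn2 (0.90), and Nr1h2 had Sh2d3c (0.91), Git1 (0.85) and Camk2g (0.85). For Abcg1 the closest were Ldb2 (0.88), Nt5dc2 (0.87) and Foxo1 (0.85), and for Lpcat3 Slc16a7 (0.84), Nfx1 (0.82) and Cfap90 (0.82). As the highest of so many, these values are descriptions only.

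Other genes of the pathway were taken from 7 lists written with earlier results of these data known. They hold 101 genes, of which 66 were measured. With 1 probe set per gene, 3 passed the test, 2 higher and 1 lower in ethanol rats, or 4.55%, where 1.14% of the 10252 genes tested passed. Of the other targets of the liver X receptors, 11 of 18 were measured, 1 rose, 1 fell and 9 did not pass, and the median was -0.03 log2 units against 0.002 over all genes. Srebf1, the lipogenic transcription factor that the receptors induce, ran from 10.14 to 10.44 in water rats and from 10.53 to 10.93 in ethanol rats, with no overlap, and rose by 0.39 (SE 0.06, limma adjusted p = 0.00482). A second Srebf1 probe set was at 0.12 (SE 0.05, adjusted p = 0.357). Scd, the desaturase that Srebf1 and the receptors both induce, ran from 9.33 to 10.14 in water rats and from 8.66 to 9.33 in ethanol rats and fell by 0.58 (SE 0.12, adjusted p = 0.0216), with all 7 ethanol rats below every water rat by a narrow margin. The call of Scd ended without ethanol rat 1 (adjusted p = 0.0502). With the oligodendrocyte mean as a covariate the Scd difference was -0.36 (adjusted p = 0.108), and with the microglial mean the Srebf1 difference was 0.33 (adjusted p = 0.0736), neither of them called.

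Of the genes that move and store sterols inside cells, 16 of 21 were measured and 1 rose. Means were higher in ethanol rats for 8 of the 16 and lower for 8, with a median of -0.007 log2 units. Npc2, the lysosomal protein that hands cholesterol to the membrane for release, ran from 12.17 to 12.49 in water rats and from 12.45 to 12.74 in ethanol rats. It rose by 0.26 log2 units (SE 0.05, adjusted p = 0.0309) and was above the water mean in 7 of 7 ethanol rats. Leaving out arrays singly ended this call in 9 of 15 cases, namely ethanol rats 2, 4, 6, 7 and 8 and water rats 2, 3, 4 and 7, and the adjusted p ran from 0.0183 to 0.0735. With the microglial mean as a covariate the difference was 0.09 (adjusted p = 0.498).

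No gene passed in the 5 remaining lists. Receptor partners and coregulators, 12 measured of 15, had a median of 0.004 log2 units. Their smallest p-values belonged to Pias1, at 0.12 (SE 0.04) in 1 probe set and -0.02 (SE 0.03) in the other, and to the retinoid X receptors Rxrg, at 0.14 (SE 0.08), and Rxrb, at -0.05 (SE 0.04), with Nrip1 at -0.07 (SE 0.05). Of the enzymes that make or use oxysterols only 2 of 10 were measured, Hsd3b7 at -0.11 (SE 0.06) and the sterol hydroxylase Cyp27a1 at -0.08 (SE 0.08).

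Lipoproteins and their receptors, 9 measured of 15, had a median of 0.03 log2 units. The receptor chaperone Lrpap1 was at 0.19 (SE 0.06) in 1 probe set and -0.17 (SE 0.23) in the other. The high-density lipoprotein receptor Scarb1 was at -0.12 (SE 0.04), the sorting receptor Sorl1 at 0.11 (SE 0.04) and Vldlr at -0.07 (SE 0.06). The 3 other Vldlr probe sets were at -0.12 (SE 0.06), -0.07 (SE 0.06) and 0.01 (SE 0.06). Other transporters of the A and G families, 8 measured of 12, had a median of -0.06, with Abcg2 of the vessel wall at -0.20 (SE 0.08), Abca2 at -0.11 (SE 0.06), Abca8a at 0.11 (SE 0.08) and Abca5 at -0.08 (SE 0.09). Lpcat3's relatives in phospholipid remodelling, 8 measured of 10, had a median of -0.005, with Agpat5 at -0.12 (SE 0.04), Agpat3 at -0.09 (SE 0.05), Mboat7 at 0.10 (SE 0.06) and Lclat1 at 0.07 (SE 0.05).

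**Figure D4:**
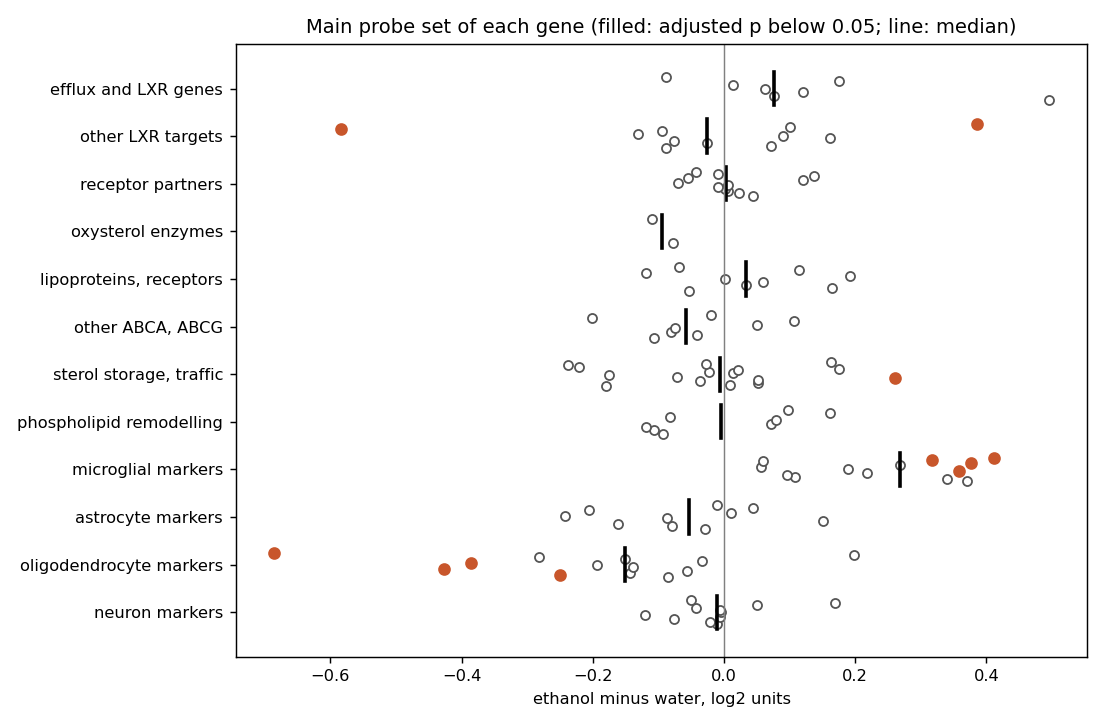
Ethanol minus water in log2 units (horizontal axis) for the main probe set of each measured gene, by list. Filled points have an adjusted p below 0.05 in limma over all probe sets, and black lines are list medians. In the top row Abca1 stands at 0.50 and the other 6 genes lie between -0.09 and 0.18. Among the pathway lists the filled points are Srebf1 (0.39), Scd (-0.58) and Npc2 (0.26), and all 13 microglial markers lie right of 0.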

How the data were processed

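Expression in ventral tegmental area was measured on Affymetrix rat arrays, 7 ethanol and 8 water rats. Labelling took 25 ng of total RNA from each animal through 2 rounds of amplification, per the labels' protocols. The authors deposited log2 values made with RMA, per the submitters' processing notes; no version is named in the labels. RMA gives all arrays 1 distribution, so shifts common to most transcripts are removed and dim or very bright probe sets are compressed. Levels are not compared between probe sets.

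Names came from GEO's platform annotation, checked by Entrez number against RefSeq (GRCr8): 20826 probe sets had 1 symbol, 436 several and 9780 none listed, 20758 were matched and 0 symbols changed. Probe sets at or above the 40th percentile of the mean (18625) entered the linear model of limma (version 3.58.1, under R 4.3.3), two-sided, with Benjamini-Hochberg adjustment; differences of dim probe sets came from the fit with no filter. The fit was tested on simulated data. A gene's main probe set is its kept one with the highest mean. Two-sided exact permutation tests of correlations used all orders of the rats; the smallest p they can give is 3.97e-04 for 7 rats.

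Members and lists were chosen with earlier results of these data known. Named were all members, the passing genes of each pathway list or, where none passed, up to 4 with the smallest p, and the 3 genes most like each member. Alternatives were other filters, centring, trend and robust settings, marker covariates, the animal number as a block and leaving out each array. The 15 samples of the series include no ethanol rat numbered 3. Nothing in the labels says which rats shared a litter or day, and p-values measure only the spread between these arrays.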

Additional observations from a re-analysis of the deposited data

Results flagged for a closer look

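Each of the 18 probe sets was examined in each group, 36 groups of values in all, for a highest or lowest rat far from the others, a check that marks about 1 group in 20 by chance. It marked 1. Ethanol rat 6 stood at 4.87 log2 units for the second Nr1h2 probe set, 1389854_at, where the other 6 ethanol rats ran from 4.56 to 4.69. This probe set lay below the filter on dim probe sets.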

How the results depend on the processing

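The count of probe sets past the threshold was 173. It was 282 with the microglial and 328 with the oligodendrocyte mean as a covariate, 59 with the animal number as a replicate block, and 101 to 184 with 1 array left out (101 without ethanol rat 7 and 102 without ethanol rat 8). The count among the members, 1, was 0 with a filter at the 60th percentile or the microglial mean as a covariate, 1 with the replicate block, and 0 to 2 with 1 array left out (0 without ethanol rat 8 and 2 without ethanol rat 6). The count among other pathway genes, 3, was 6 with the microglial covariate, 0 with the replicate block and 2 to 3 with 1 array left out. Srebf1 and Npc2 were not among those 6, so most of the 6 were genes not called without the covariate. The filter at the 60th percentile left out the called member probe set, Abca1 1383355_at, so its call was not tried there. The cause of the other differences was not tested. The block used the 7 numbers that both groups share, and the same 14 arrays without it, a fit added after seeing the data, gave 130 calls. With the block the adjusted p in limma was 0.0507 for Srebf1, 0.149 for Scd and 0.186 for Npc2, and for those 14 arrays without it 0.0111, 0.0430 and 0.0578. Same-numbered rats correlated at -0.41 to 0.29 over deviations from group means, 4 of 7 above 0.1, and 2 of 7 ethanol rats correlated best with their own number, so the numbers were not taken as pairs. With arrays centred on their median, 1 correlation among members passed after adjustment, Nr1h2 against Mylip in ethanol rats (r = -0.94, exact permutation p = 3.97e-04, adjusted p = 0.0286). The median difference of the members' main probe sets, 0.08, ran from 0.06 to 0.10 with 1 array left out, and was 0.03 with the microglial and 0.13 with the oligodendrocyte covariate. Probe sets near or below the filter carry little signal over background.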
